A study of Mus musculus with 6 samples.

Results

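The oxysterol-binding protein family was examined in mouse liver through 10 genes, Osbp and its relatives Osbpl1a, Osbpl2, Osbpl3, Osbpl5, Osbpl6, Osbpl8, Osbpl9, Osbpl10 and Osbpl11, of 18193 genes with a probe set of their own. They had 23 of the 45037 probe sets that were not array controls. Osbpl3 was chosen by its measured difference between knockout and control livers in these same arrays, and its relatives were taken by family name with that result known. All differences of the members between the groups are therefore given as a description, and none is offered as evidence. The family genes Osbp2 and Osbpl7 were not among the 10 and are described separately.

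Liver RNA came from 6 male mice aged 9 weeks, 1 mouse per Affymetrix array, 3 labelled as conditional Keap1 knockouts (Alb-Cre, Keap1 flox/-) and 3 as genetic controls (Alb-Cre, Keap1 flox/+). Cre was driven by the albumin promoter, which is active in hepatocytes, so both groups carried the same transgene and 1 floxed allele. The second allele was null in the knockouts, whether or not Cre acted, and wild-type in the controls, which would keep a single working copy where Cre acted. All 6 mice were given only the vehicle, which held 10% DMSO, 10% Cremophor-EL and 80% PBS. Below, knockouts 3, 4 and 5 and controls 1, 2 and 3 carry the numbers of the labels, which do not link mice across the groups.

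Oxysterol-binding proteins and the related ORP proteins share a lipid-binding domain that carries a sterol or another lipid, often in exchange for the phosphoinositide PI4P. Many also bind the endoplasmic reticulum proteins VAPA and VAPB, and so sit where that membrane touches another one. In liver, oxysterols are intermediates of bile acid synthesis and ligands of the sterol receptor LXR. KEAP1 holds down the transcription factor NRF2 by directing its breakdown.

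The arrays were checked before the family was described. Keap1 signals were 326, 151 and 214 in knockouts 3, 4 and 5 and 786, 843 and 700 in controls 1, 2 and 3, so the groups did not overlap. None of the sources used here says whether these probes read the floxed part of Keap1. Signals of the NRF2 target Nqo1 were 2842, 2946 and 2509 against 487, 495 and 666. Of the 7 measured hepatocyte markers, including Alb, Apoa1 and Ttr, 0 passed the test (limma, Benjamini-Hochberg, threshold 0.05; 3 at an unadjusted p under 0.05), and their summed signal ran from 176019 to 197790 in the knockouts and from 156154 to 177676 in the controls. Over all 13027 genes, each by its brightest probe set, 1.85% passed, so a count of 0 among 7 says little. Correlations of log2 signal between arrays, over probe sets that are not independent, were 0.967 to 0.973 within groups and 0.956 to 0.962 between them.

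Osbpl3 encodes ORP3, a protein of contacts between the endoplasmic reticulum and the plasma membrane that binds the small GTPase R-Ras and acts in cell adhesion. It was low in control liver and high in knockout liver. Its brightest probe set, 1428484_at, had signals of 1326, 1623 and 1956 in knockouts 3, 4 and 5, and of 40.2, 148 and 23.0 in controls 1, 2 and 3. Every knockout lay above every control, and the highest control, mouse 2, was still far under the lowest knockout. The means were 1635 ± 315 and 70.3 ± 67.6 (SD, n = 3 each), a ratio of 23.2. On the log2(signal + 16) scale, used for all differences here, the knockouts were higher by 4.52 with a standard error of 0.45, or 22.9-fold.

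The second probe set, 1438724_at, showed the same arrangement at lower signal. It gave 335, 520 and 525 in knockouts 3, 4 and 5, and 10.6, 70.9 and 23.6 in controls 1, 2 and 3. Control 2 was again the highest control, and knockout 3 the lowest knockout. The difference was 3.37 with a standard error of 0.41, or 10.4-fold, with means of 460 ± 108 and 35.0 ± 31.7 (SD, n = 3 each). Because 2 of its 3 control values lay near or under the offset of 16, this size moved with the offset, to 4.04 with an offset of 1 and 2.43 with an offset of 64. The difference of 1428484_at moved with the offset too, to 4.94 with an offset of 1 and 3.76 with an offset of 64. Leaving out 1 array at a time gave 4.09 to 5.12 for the first probe set and 2.99 to 3.85 for the second. Both were highest without control 2.

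The third Osbpl3 probe set, 1446746_at, carried almost no signal in either group. Its values were 15.0, 4.3 and 36.9 in the knockouts and 22.2, 5.0 and 21.5 in the controls, and the groups overlapped. None of the sources used here says which part of the transcript each probe set reads, so they were not combined. Of the 27022 probe sets above the signal filter, which was set at the 40th percentile of mean log2 signal, 4 had a difference at least as high as that of 1428484_at, itself included, and 12 one at least as high as that of 1438724_at. The control means of both probe sets, 6.15 and 5.49 on the log2(signal + 16) scale, lay below the filter at 6.57, so both passed it through their level in the knockouts.

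**Figure D1:**
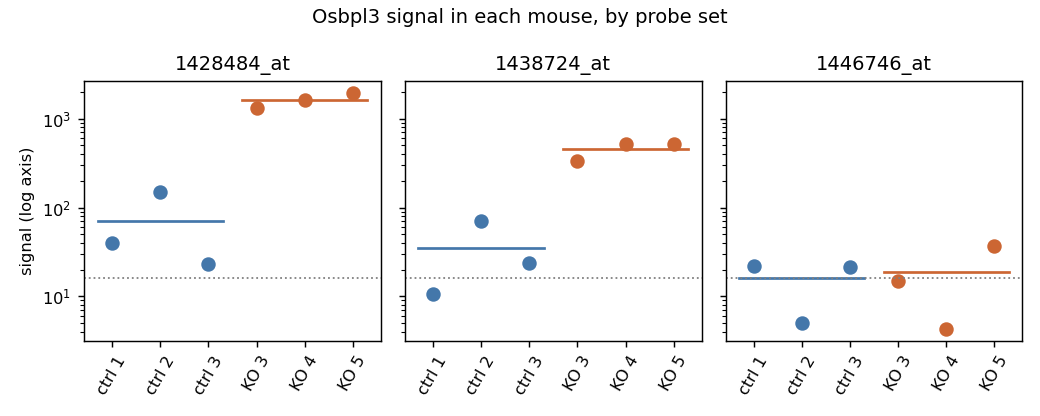
Signal of the 3 Osbpl3 probe sets (log axis) in each control (ctrl, blue) and knockout (KO, orange) mouse; horizontal bars are group means and the dotted line is the offset of 16. In 1428484_at and 1438724_at every knockout lies above every control and control 2 is the highest control, while in 1446746_at both groups lie between 4.3 and 36.9.

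The start of Osbpl3 and that of Osbpl8 are shown side by side because, among the brightest probe sets above the filter, they had the highest and the lowest difference. Both are the 250 bases before the RefSeq start in GRCm38.p6, read 5′ to 3′ on the strand of the gene: chr6:50456171-50456420 on the minus strand for Osbpl3 and chr10:111164552-111164801 on the plus strand for Osbpl8. Capitals mark matches on either strand to the antioxidant response element core TGACNNNGC, the pattern that NRF2 and its small Maf partners are known to bind, and to the CCAAT box.
Osbpl3: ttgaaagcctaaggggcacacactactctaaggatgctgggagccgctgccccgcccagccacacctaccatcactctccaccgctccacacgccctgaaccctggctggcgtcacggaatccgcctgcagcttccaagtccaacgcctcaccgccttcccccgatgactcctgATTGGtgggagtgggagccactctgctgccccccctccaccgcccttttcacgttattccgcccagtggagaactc
Osbpl8: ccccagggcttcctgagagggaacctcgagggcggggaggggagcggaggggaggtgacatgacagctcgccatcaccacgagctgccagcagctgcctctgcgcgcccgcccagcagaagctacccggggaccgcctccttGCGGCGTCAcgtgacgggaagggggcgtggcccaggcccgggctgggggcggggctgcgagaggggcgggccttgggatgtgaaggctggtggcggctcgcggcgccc

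The capitals in Osbpl3 are 1 CCAAT box on the opposite strand, which begins 76 bases before the start, and no stretch of that window matched TGACNNNGC. The capitals in Osbpl8 are 1 match to TGACNNNGC on the opposite strand, which begins 108 bases before the start, and the 50 bases after the start held another. RefSeq promoters of 300 bases, with 250 before and 50 after the start, were matched for 8 of the 10 members, 12 promoters in all. TGACNNNGC matched 2 of the 12, that of Osbpl8 and 1 of the promoters of Osbpl6, against 12.4% of all 32851 promoters. CCAAT matched 8 of the 12, against 37.4% of all, and the GC box GGGCGG 9 of the 12, against 35.7%. In the windows of Osbpl3 and Osbpl8, 0 matches to these 3 motifs overlapped. A match is a description of letters, and these counts say nothing of binding.

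The closest relatives of Osbpl3 by sequence subfamily are Osbpl6 and Osbpl7, whose products ORP6 and ORP7 resemble ORP3. Neither had the knockout signal of Osbpl3. Osbpl6 had 5 probe sets, all below the filter, with signals of 0.5 to 87.9 in the knockouts and 4.0 to 46.7 in the controls, and 18 of these 30 values were under the offset. The highest of them, 87.9 in 1449627_at, came from knockout 3 alone, whereas knockouts 4 and 5 had 11.6 and 15.6. In 2 of the 5 all knockouts lay under all controls, 1457881_at with 18.4, 25.8 and 14.7 against 43.9, 31.3 and 46.7, and 1438717_a_at with 3.2, 1.2 and 0.5 against 20.0, 20.7 and 4.0. The groups overlapped in the other 3. Over the 27022 probe sets above the filter, 20.5% had groups that did not overlap. No such share was computed below the filter, where these values lie, so nothing is read from the 2. The brighter Osbpl7 probe set gave 19.2, 81.4 and 159 in the knockouts and 103, 28.4 and 130 in the controls. The groups overlapped there. The dimmer Osbpl7 probe set, 1459966_at, below the filter, gave 22.4, 6.4 and 55.0 against 66.9, 55.6 and 63.1, with all knockouts under the controls. Nothing is read from that order either, for the same reason.

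Among all members, 13 probe sets of 7 genes passed the filter, and 10 probe sets did not. Of the 13, 2 were past the threshold of limma, both of Osbpl3, and 4 had groups that did not overlap. Over all 27022 probe sets, 1.52% were past the threshold, 217 higher and 193 lower, and 20.5% had groups that did not overlap. Since the contrast itself chose Osbpl3, nothing is read from these counts. The other 6 genes held 11 probe sets, of which 0 were past the threshold and 2 had an unadjusted p under 0.05. Their differences ran from -0.43 to 0.27 with a median of -0.02, beside a median of -0.04 over all probe sets tested.

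**Figure D2:**
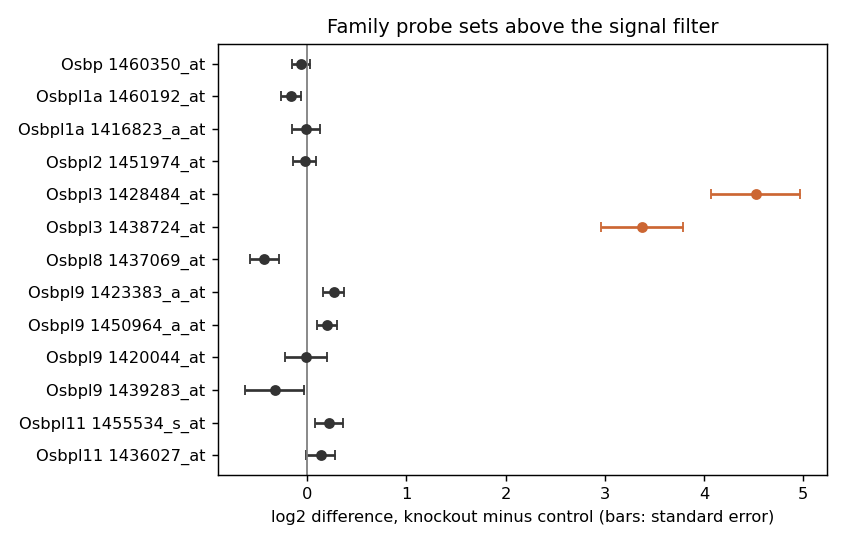
Log2 difference, knockout minus control, of the 13 member probe sets above the signal filter, with bars of 1 standard error. The 2 Osbpl3 probe sets lie at 4.52 and 3.37, and the other 11 between -0.43 and 0.27.

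The family members that exchange phosphatidylserine for PI4P at the plasma membrane are encoded by Osbpl5 and Osbpl8. Osbpl8 signals were 986, 748 and 974 in the knockouts and 1158, 1102 and 1406 in the controls. The groups did not overlap, with all 3 knockouts under the controls. Over the 27022 probe sets above the filter, 20.5% had groups that did not overlap. The Osbpl8 difference was -0.43 with a standard error of 0.15, or 74.1% of control, and did not pass (limma adjusted p = 0.223). Over the alternative settings the difference ran from -0.50 to -0.31, and the threshold was passed in 0 of 15. Osbpl5 could not be followed, since its single probe set had signals of 10.0 to 49.1, below the filter, and its groups overlapped.

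Osbp encodes the founding member of the family, which brings cholesterol from the endoplasmic reticulum to the Golgi in exchange for PI4P. Its signals were 2328, 2243 and 2215 in the knockouts and 2262, 2455 and 2365 in the controls. The groups overlapped, and the difference of -0.06, with a standard error of 0.09, turned to 0.03 after median centring of the arrays.

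Osbpl1a and Osbpl2 encode ORP1, whose long form sits on late endosomes, and ORP2, which moves cholesterol toward the plasma membrane and can bind lipid droplets. The brighter Osbpl1a probe set gave 4331, 4521 and 5118 in the knockouts and 5337, 4991 and 5292 in the controls, a difference of -0.16 with a standard error of 0.10. Knockout 5 lay within the range of the controls. The other Osbpl1a probe set differed by -0.01, and its sign turned in 3 of 15 alternative settings. Osbpl2 signals were 1378, 1545 and 1613 against 1607, 1631 and 1381, with nearly the same range in both groups, and a difference of -0.02 with a standard error of 0.12, whose sign turned in 4 of 15 settings.

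Osbpl9 encodes ORP9, which acts between the endoplasmic reticulum and the Golgi. It had 5 probe sets, and they did not point one way. The brightest, 1423383_a_at, gave 7806, 6598 and 7568 in the knockouts and 6683, 5702 and 5852 in the controls, higher by 0.27 with a standard error of 0.11. Control 1 lay above knockout 4, so the groups overlapped. The next, 1450964_a_at, gave 4133, 3612 and 3580 against 3510, 3290 and 3061, a difference of 0.20 with a standard error of 0.10 and no overlap. The dimmer pair above the filter differed by -0.02 and -0.33 with standard errors of 0.21 and 0.30. The sign of the former turned in 6 of 15 settings. The fifth, 1438614_x_at, whose suffix marks probes that can match other transcripts, was below the filter. It gave 27.7, 44.8 and 47.8 against 64, 69.6 and 51.0, with all knockouts under the controls. No share of such probe sets was computed below the filter, so nothing is read from that order.

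Osbpl10 and Osbpl11 form a further subfamily, and ORP11 is known from the Golgi and late endosomes. The brighter Osbpl11 probe set, 1455534_s_at, gave 1392, 1546 and 1422 in the knockouts and 1234, 1500 and 1037 in the controls. Control 2 lay within the range of the knockouts, and the difference was 0.22 with a standard error of 0.14. The other Osbpl11 probe set, 1436027_at, differed by 0.13 with a standard error of 0.15, in the same direction. Both Osbpl10 probe sets were below the filter, the brighter at 85.5, 50.5 and 46.0 in the knockouts and 104, 105 and 79.9 in the controls, where knockout 3 overlapped control 3. The dimmer gave 10.7, 4.6 and 14.5 against 12.3, 10.4 and 21.6, and its groups overlapped.

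Osbp2, the nearest relative of Osbp, also had groups that stood apart. Its brighter probe set, 1428355_at, gave 220, 154 and 263 in the knockouts and 18.2, 124 and 48.4 in the controls. Every knockout was above every control, and control 2 was the highest control, as for Osbpl3. Control 2 was the highest control in 29.4% of all probe sets tested, and in 37.1% of those called higher by over 1. Nothing is therefore read from that order. The difference was 1.73 with a standard error of 0.47, or 3.31-fold, and did not pass the threshold (limma adjusted p = 0.129). The mean log2 signal of the controls in 1428355_at, 6.08, lay below the filter at 6.57, and that of the knockouts was 7.81. This probe set was therefore tested only through its level in the knockouts, as were those of Osbpl3. The dimmer Osbp2 probe set, below the filter, gave 63.5, 102 and 46.1 against 51.2, 46.5 and 52.8, and its groups overlapped.

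**Figure D3:**
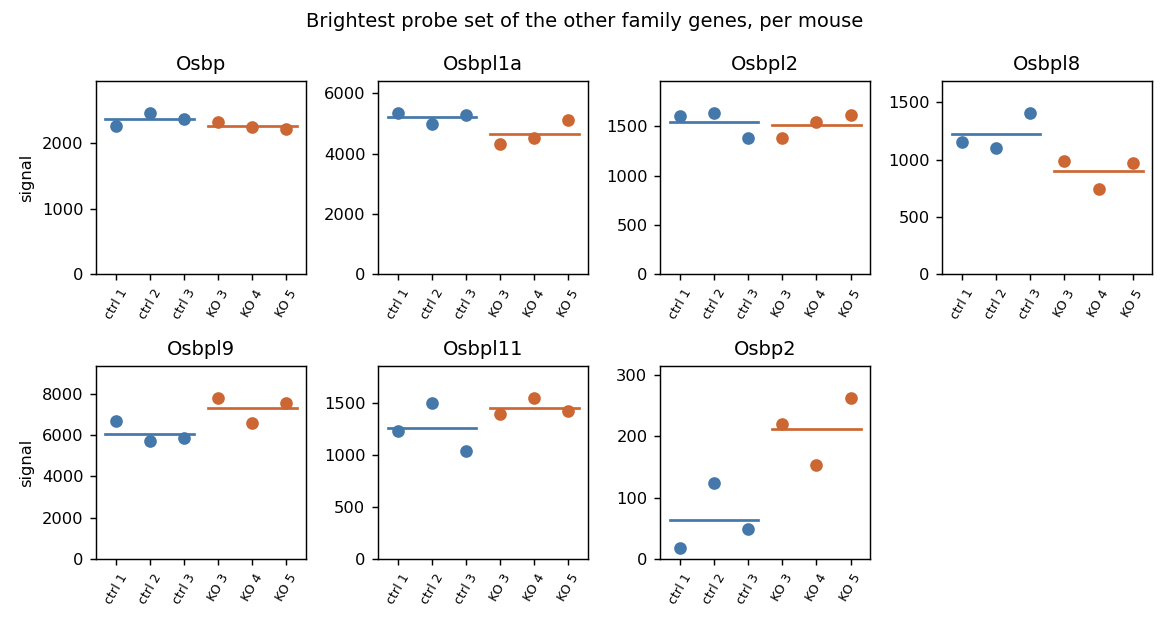
Signal (linear axis from 0) of the brightest probe set of the 6 other member genes above the filter and of Osbp2 in each control (ctrl, blue) and knockout (KO, orange) mouse; bars are group means. Only in Osbpl8 and Osbp2 do the groups of these 7 probe sets not overlap, Osbpl8 with lower and Osbp2 with higher knockouts.

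The genes whose values over the 6 mice were most like those of Osbpl3 were then sought by Pearson's correlation with 1428484_at, among 452 genes with a range of at least 2 on the log2 scale. The 5 with the highest correlation were Anxa13 (0.992), an annexin, Cbr3 (0.987), a carbonyl reductase, Gpx2 (0.981), a glutathione peroxidase, Tinag (0.981), a matrix antigen of kidney tubules, and Abcc4 (0.975), an efflux transporter. These values rest on 6 mice in 2 groups, so that most of each is the shared gap between the groups. In all 5, control 2 was the highest control, as in both Osbpl3 probe sets, with 267 for Anxa13 beside 84.4 and 81.2 in controls 1 and 3, and 432 for Cbr3 beside 100.2 and 107. The choice by correlation with a probe set in which control 2 was the highest control favours that order, so nothing is read from it. Among the knockouts the order was not shared, since Osbpl3 was highest in knockout 5, whereas Anxa13, Cbr3, Gpx2, Tinag and Abcc4 were all highest in knockout 4.

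**Figure D4:**
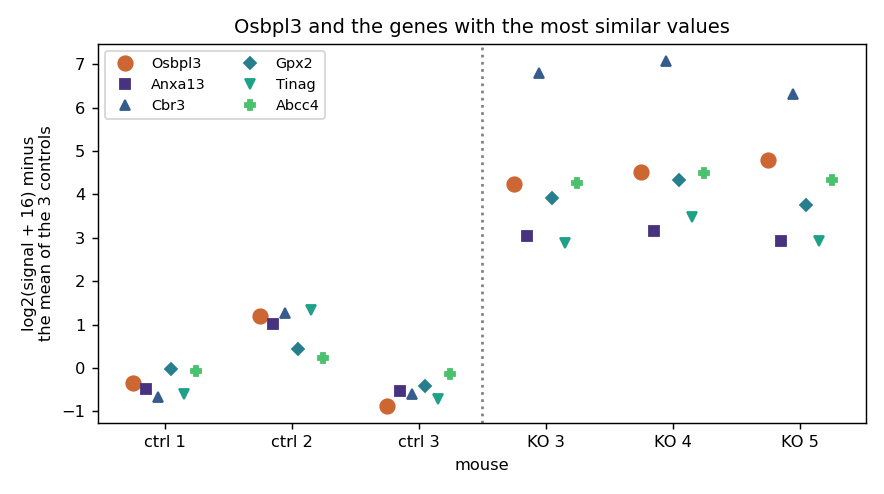
Log2(signal + 16) minus the mean of the 3 controls for Osbpl3 (large orange circles, probe set 1428484_at) and the 5 genes with the highest correlation with it, by mouse (ctrl, control; KO, knockout). Control 2 is the highest control for all 6 genes, and knockout 5 is the highest knockout for Osbpl3 alone among them.

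The genes next to Osbpl3 in RefSeq were measured on the same arrays. On one side lie Gsdme, Mpp6 and Npy, and on the other Cycs, 5430402O13Rik and 4921507P07Rik, counting only genes with a probe set of their own. Gsdme, the nearest, encodes a gasdermin and gave 1584, 1733 and 1515 in the knockouts and 1351, 1697 and 1736 in the controls, a difference of 0.02. Cycs, the nearest on the other side, encodes cytochrome c and differed by 0.13, with no overlap between the groups (limma adjusted p = 0.518). Mpp6, Npy and 5430402O13Rik differed by -0.27, 0.74 and 0.37 without passing (adjusted p = 0.464, 0.521 and 0.521), and 4921507P07Rik was below the filter. Of the 5 neighbours tested, 0 were past the threshold of limma, and 0 had an unadjusted p under 0.05. Over all 13027 genes, 1.85% were past the threshold, so nothing is read from a count of 0 among 5.

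Partners of the family were counted in 4 lists chosen with earlier results of these data known. They held 80 genes, 7 without an own probe set and 2 below the filter. Of the 71 tested, each by its brightest probe set, 1 rose and 2 fell, while over all 13027 genes 1.85% were past the threshold and the median difference was -0.02. The list medians lay between -0.045 and 0.005.

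The first list held tethers of the contact sites at which ORP proteins work and enzymes that make, use or remove PI4P. It also held the phosphatidylserine enzymes Ptdss1, Ptdss2 and Pisd. Of 16 tested, 0 passed the threshold of limma, with 2 at an unadjusted p under 0.05, and the median was -0.02. Vapa and Vapb differed by 0.04 and 0.05, and Sacm1l, the phosphatase that removes PI4P, by 0.11. The difference farthest from 0 was that of Mospd3, at -0.50 (limma adjusted p = 0.247).

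Partners of ORP3 in R-Ras signalling and adhesion gave 0 of 13 past the threshold, with 1 at an unadjusted p under 0.05 and a median of 0.005. Rras itself, the GTPase that ORP3 binds, had a difference of -0.21 (limma adjusted p = 0.461). Iqsec1 differed by 0.12 and Itgb1 by 0.13. The difference farthest from 0 was that of Vcl, which encodes the adhesion protein vinculin, at -0.48 (adjusted p = 0.131).

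Among the other lipid transfer proteins, 1 of 24 fell and 0 rose, with a median of -0.045. Stard4, a soluble sterol carrier, gave 868, 917 and 1147 in the knockouts and 2580, 2023 and 1688 in the controls. The groups did not overlap, and Stard4 fell by 1.08 on the log2 scale (standard error 0.17, limma adjusted p = 0.0188). The call was lost without knockout 3 (0.0846), knockout 4 (0.0532), control 1 (0.0503) and control 2 (0.0613), after median centring (0.0505) and without the variance trend (0.0912).

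Of 18 oxysterol enzymes and sterol-responsive genes, 1 rose and 1 fell, with a median of -0.04. Cyp39a1, which hydroxylates an oxysterol on the way to bile acids, gave 2297, 1616 and 2878 in the knockouts and 853, 715 and 1029 in the controls. It was higher by 1.35 without overlap (standard error 0.21, limma adjusted p = 0.0176), a call lost without knockout 3 (0.0776), control 1 (0.0603) and control 2 (0.0614) and without the variance trend (0.0877). Insig1, which retains the sterol sensor SCAP in the endoplasmic reticulum, gave 2854, 1881 and 3261 against 8526, 4733 and 5506 and fell by 1.22 (adjusted p = 0.0493). That call held in 2 of 15 alternatives, the filter at the 60th percentile (0.0412) and the offset of 64 (0.0458). It was lost without any 1 mouse (0.0581 to 0.125), without a filter (0.0906), with an offset of 1 (0.0517), after quantile normalization (0.0504), median centring (0.0707) or cyclic loess (0.0544), with robust eBayes (0.0845) and without the variance trend (0.158). Abcg5, a sterol exporter under LXR, differed by 0.87 without passing (adjusted p = 0.0960), but by 1.15 without control 1, where it passed (0.00656). The LXR gene Nr1h3 and, among its targets, Abca1 and Abcg1 differed by -0.08, -0.02 and 0.19. Further sterol-responsive genes of the list differed on both sides of 0 without passing. Srebf1 differed by -0.65 (limma adjusted p = 0.276), Abcg8 by 0.32, Lpcat3 by -0.21 and Mylip by -0.16.

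**Figure D5:**
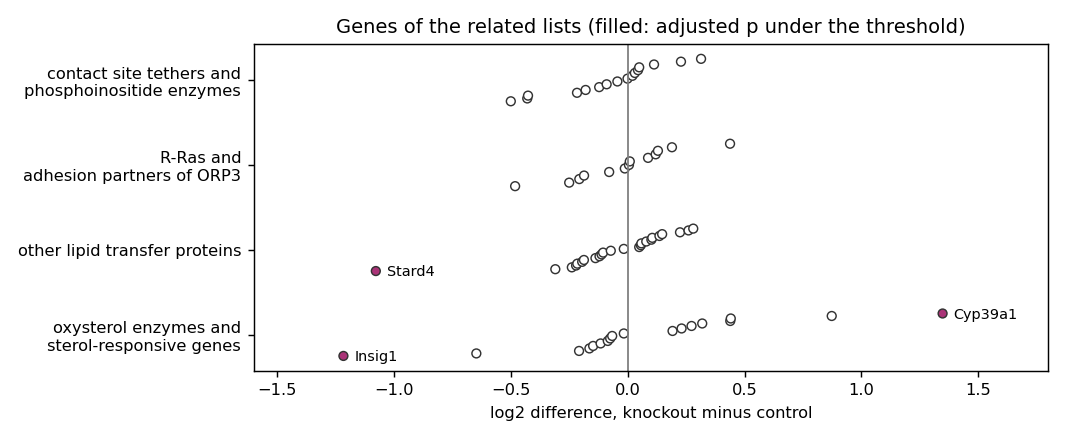
Log2 difference, knockout minus control, of the 71 tested genes of the 4 related lists, 1 point per gene, filled where the limma adjusted p was under 0.05. Stard4 and Insig1 lie at -1.08 and -1.22 and Cyp39a1 at 1.35, and the open points include Abcg5 at 0.87.

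Whole liver holds several cell types, and fewer cells of a type cannot be told apart from less RNA per cell. Of 31 markers tested for hepatocytes and 5 other cell types, 0 passed the threshold (limma), with 6 at an unadjusted p under 0.05. Over all 13027 genes, 1.85% passed, so a count of 0 among so few markers says little. For the cholangiocyte markers Krt19, Krt7, Epcam, Sox9 and Cftr, 0 of 5 had a higher mean log2 signal in the knockouts, and their summed signal was 258 to 528 in the knockouts and 313 to 1318 in the controls. The highest sum was that of control 2, the highest control for Osbpl3 too, with Krt19 at 502 beside 8.3 and 17.4 in controls 1 and 3, and Krt7 at 220 beside 67.9 and 86.2. For Epcam, Sox9 and Cftr, control 3 was instead the highest control. They gave 478, 144 and 39.2 there, beside 425, 140 and 31.1 in control 2. Since control 2 was the highest control in 29.4% of all probe sets tested, nothing is read from the peak shared with Osbpl3. The T and B lymphocyte markers summed to 835 to 1001 in the knockouts and 786 to 900.1 in the controls, and the Kupffer cell markers to 8430 to 10770.1 and 6494 to 11029. The stellate cell markers summed to 9157 to 10277 in the knockouts and 9600 to 10545 in the controls. The endothelial markers summed to 5469 to 5834 and 5330 to 5417, without overlap. Of these 6 markers, however, 2 had a higher and 4 a lower mean log2 signal in the knockouts. Only in 1 of them, Lyve1, did the groups not overlap, with 739, 705 and 1394 against 238, 332 and 582. Endothelial Lyve1 differed by 1.29 and the macrophage gene Marco by 1.40 without passing (adjusted p = 0.117 and 0.120). Their part in the Osbpl3 values was not tested.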

How the data were processed

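The deposited values are linear array intensity, scaled by the authors to a common level: the mean of each array without its lowest and highest 2% of probe sets was 500.0. Such scaling hides a change in total RNA per cell. No source used here gives the summarising software or the genome build. Of 45101 probe sets, 64 array controls were left out. Genes were named from the platform annotation, for probe sets with 1 symbol, which held all members. From these intensities log2(signal + 16) was computed, which understates changes of dim genes, and between 11.9% and 16.5% of values per array were under 16. Probe sets at or above the 40th percentile of mean log2 signal, 27022 in all, were fitted with limma 3.58.1 in R 4.3.3 (two-sided, eBayes with a mean-variance trend), adjusted by Benjamini-Hochberg over all of them at a threshold of 0.05. A gene in a list was represented by its brightest probe set. The share of all probe sets at an unadjusted p under 0.05 was not computed, so nothing is read from counts at that level. Family probe sets were named whether or not they passed the filter, the dimmest of Osbpl5 and Osbpl6 by their range. Also named were, of each list, genes past the threshold or else the 1 with the largest difference. The Osbpl3 neighbours and the 5 genes most like it were named too. Vapa, Vapb, Sacm1l, Rras, Iqsec1, Itgb1, Abcg5, Abcg8, Nr1h3, Abca1, Abcg1, Srebf1, Lpcat3 and Mylip were added after their values were seen. Of the steps, only the limma fit was tested on simulated data. The members and lists were chosen with earlier results of these data known. The number of arrays limits the precision. Alternatives were other filters, offsets, normalizations and eBayes settings, and leaving out each array. Promoter sequences were RefSeq's.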

Additional observations from a re-analysis of the deposited data

How the results depend on the processing

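No paired analysis was possible because the groups share a single replicate number, 3, which does not link mice. Both brighter Osbpl3 probe sets kept their direction in all 15 alternatives, from 3.76 to 5.12 and from 2.43 to 4.04. Probe set 1428484_at was past the threshold in all 15. These alternatives reuse the arrays that chose Osbpl3, so nothing is read from its passing. With the filter at the 60th percentile, 1438724_at was not tested and 1 member probe set was called. Its difference was 4.04 with an offset of 1 and 2.43 with an offset of 64. Osbp went to 0.034 after median centring, from -0.06. The count of probe sets called was 410, but 271 without a filter, 105 without the variance trend, and 158 to 297 without 1 array (158 without knockout 3 and 213, 210 and 246 without controls 1, 2 and 3). Of all calls 52.9% were higher, against 66.3% after median centring (189 of 285), 64.8% without the trend, and 63.4% and 61.4% without controls 1 and 2. Among the oxysterol and sterol genes the count of 2 was 1 without a filter, with an offset of 1, with robust eBayes and after quantile, median and cyclic loess normalization, 0 without the trend, and 0 to 1 without 1 array (0 without knockout 3 or control 2). Among the other lipid transfer proteins the count of 1 was 0 after median centring and without the trend, and 0 to 1 without 1 array (0 without knockout 3, knockout 4, control 1 or control 2). The causes were not tested.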
